A study of Rattus norvegicus with 6 samples.

Results

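The 10 genes Mb21d1, Tmem173, Tbk1, Ikbke, Trex1, Ddx41, Mavs, Zbp1, Samhd1 and Dnase2, which sense or clear nucleic acids inside the cell or relay the signal, were followed in rat aortic vascular smooth muscle cells (RASMCs). They were taken by symbol from a table of 22574 genes, and all 10 were listed. RNA of RASMCs was sequenced in 6 libraries. 3 libraries came from cells given both citrullinated histone H3 (H3CIT) at 0.03 μM and double-stranded DNA (dsDNA) at 300 ng/ml, labelled CitH3+dsDNA and called challenged here, and 3 from controls given bovine serum albumin. RASMCs are primary cells from the aortas of Sprague-Dawley rats with no genetic change named. H3CIT and dsDNA are components of extracellular traps, the chromatin fibres that activated cells release, and both were added together, so the share of either agent in a difference cannot be told apart. The study's reporting form says that in vitro replicates were wells plated with cells of the same rat, so p-values measure the spread between wells of one animal's cells and not between animals.

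Double-stranded DNA in the cytosol is bound by the enzyme cGAS, which then makes the cyclic dinucleotide cGAMP. cGAMP binds STING on the endoplasmic reticulum, STING moves to the Golgi and recruits the kinase TBK1, and TBK1 phosphorylates the transcription factor IRF3, which turns on type I interferon and related genes. The same kinase and its relative IKKε also serve MAVS, the mitochondrial adaptor of the RNA sensors RIG-I and MDA5, and nucleases such as TREX1 and DNase II keep the cell's own DNA from setting the pathway off. In the vessel wall the pathway is studied because dying cells and extracellular traps in plaques expose smooth muscle cells to DNA.

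3 of the 10 genes rose after H3CIT+dsDNA. They were Mb21d1, which encodes the DNA sensor cGAS, 2.79-fold, Tmem173, which encodes the adaptor STING, 1.87-fold, and Tbk1 1.58-fold. The kinase TBK1 serves the DNA arm and also, with MAVS, the RNA arm. None of the 9 tested was called lower. For Mavs each challenged library lay below each control, by a small amount and without a call. In bulk RNA, more cells that express a gene and more RNA per cell cannot be told apart. The other kinase gene, Ikbke, the RNA-arm adaptor gene Mavs, the helicase gene Ddx41 and the nucleic acid-clearing genes Trex1, Samhd1 and Dnase2 were not called, with log2 ratios of challenged over control libraries between -0.14 and 0.00041, and Zbp1 had too few reads to be tested. The study itself displays Mb21d1, Tmem173 and Tbk1 under the STING pathway in a heat map of RASMCs under this challenge, so their direction here is not independent evidence. Calls rest on a two-sided quasi-likelihood test in edgeR, at p-values under 0.05 after Benjamini-Hochberg adjustment over the 12591 genes that had enough counts. The log2 ratio given for each gene is its log2 fold change, challenged over control. Over those genes 2.20% were called and 1.94% were called higher, against 3 of the 9 members tested, all of them higher. The members were chosen with earlier results of these data known, so their share called is no evidence of an excess. The 9 members tested had at least 53 counts in every library, so none passed the count filter through one group alone.

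Library totals lay between 17573905 and 18742395 counts, and the scaling factors of edgeR's TMM method between 0.990 and 1.01. Levels are CPM, counts scaled to a common library total after TMM, and they are compared between libraries and not between genes, because they are not divided by gene length. The defining smooth muscle genes were abundant in all libraries, where the 8 markers summed to between 8479 and 9220 CPM in controls and between 5743 and 6300 CPM after H3CIT+dsDNA. Of these 8 markers 5 were called, Acta2, Tagln, Cnn1 and Smtn lower and Myocd higher. In 9 of the 15 alternatives 4 were called, without Smtn, whose adjusted p from edgeR was 0.0386. The 10 macrophage markers summed to between 73.6 and 76.6 CPM in controls and between 72.6 and 75.0 CPM after H3CIT+dsDNA, with C1qb at 0 in all libraries, Ptprc at 1 count over all 6 libraries and no marker of the 5 tested called. Most of this sum was Cd14, at 52.1 ± 1.05 CPM challenged and 52.3 ± 1.48 CPM control (SD, n = 3). Aif1 of the same list, which was too low to be tested, counted 8, 9 and 9 challenged and 2, 2 and 3 control reads, so its groups did not overlap, with a ratio of 3.79 and a Poisson interval of 1.60 to 10.3 that covers counting error only. The 7 endothelial markers summed to between 9.80 and 10.5 CPM in controls and between 8.43 and 8.90 CPM in challenged libraries, and Cldn5 was at 0. The 5 fibroblast markers summed to between 2.59 and 4.93 CPM and between 2.64 and 4.14 CPM. The part of these levels in the results below was not tested.

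**Figure D1:**
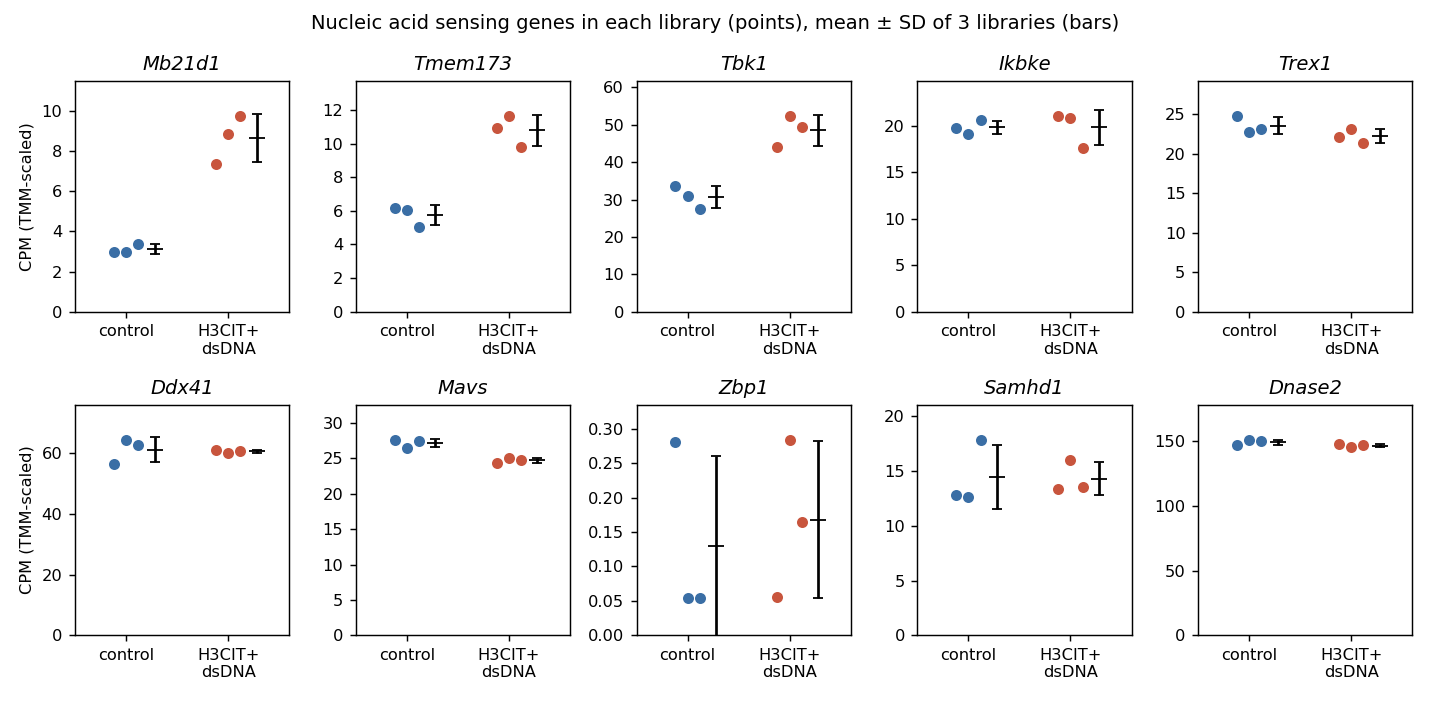
Level of each of the 10 genes in CPM (vertical axes, starting at 0 and different for each gene) in the 3 control and the 3 H3CIT+dsDNA libraries, one point per library in replicate order, with the mean and SD of each group as a bar to the right of the points. For Mb21d1, Tmem173 and Tbk1 every H3CIT+dsDNA library lies above every control, for Mavs every one lies below, and for the other 6 genes the groups overlap; the lower end of the control bar of Zbp1 falls below 0 and is not drawn.

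Mb21d1 is the gene of the DNA sensor cGAS. It counted 134, 156 and 177 reads in the challenged libraries and 53, 55 and 63 in the controls. Every challenged library stood well above every control, and the 3 controls lay close together while the challenged libraries were more spread. The levels were 8.66 ± 1.19 CPM (SD, n = 3) against 3.11 ± 0.247 CPM (SD, n = 3), with a log2 ratio of 1.48 (95% interval 1.14 to 1.81, edgeR adjusted p = 5.25e-05). This was the largest log2 ratio of the 9 members tested and lay at percentile 99.2 of all genes tested. In the rat assembly GRCr8 the gene's span overlaps those of Ddx43 and of the pseudogene Trappc14l1, whose reads the counting could share, and how far it did was not tested. Ddx43 had 8 counts over all 6 libraries together, 3 at most in any one of them, and no value is given here for Trappc14l1.

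Tmem173 encodes STING, the receptor of cGAMP. It counted 198, 205 and 178 reads in the challenged libraries and 110, 112 and 94 in the controls. The groups did not overlap, and the gap between the lowest challenged and the highest control library was wider than the range within either group. The levels were 10.8 ± 0.920 CPM (SD, n = 3) against 5.75 ± 0.601 CPM (SD, n = 3), with a log2 ratio of 0.91 (95% interval 0.64 to 1.17, edgeR adjusted p = 0.000713). The window of 250 bases before and 50 bases after the start of Tmem173, which the annotation now names Sting1, is shown because the gene moved together with Mb21d1 and Tbk1. It is taken from RefSeq on the rat assembly GRCr8 at chr18:27612399-27612698, minus strand, a later assembly than the one the reads were mapped to. It is written 5′ to 3′, and the capitals mark a match to the AP-1 site TGANTCA that starts 249 bases before the gene's start.
Tmem173: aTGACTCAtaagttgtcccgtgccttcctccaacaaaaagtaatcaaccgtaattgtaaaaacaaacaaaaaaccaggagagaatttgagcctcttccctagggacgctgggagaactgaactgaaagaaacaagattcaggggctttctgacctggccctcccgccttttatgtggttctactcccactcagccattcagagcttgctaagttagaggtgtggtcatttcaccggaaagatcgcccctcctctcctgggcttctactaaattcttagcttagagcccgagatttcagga

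Tbk1 encodes the kinase that STING recruits. It counted 798, 922 and 895 reads in the challenged libraries and 600, 575 and 512 in the controls, with the groups apart. The levels were 48.5 ± 4.20 CPM (SD, n = 3) against 30.7 ± 3.02 CPM (SD, n = 3), with a log2 ratio of 0.66 (95% interval 0.49 to 0.83, edgeR adjusted p = 0.000249). The rise of Tbk1 was the smallest of the 3, and the upper end of its interval lay below the lower end of that of Mb21d1, while the intervals of Tbk1 and Tmem173 overlapped. The same window of Tbk1, from RefSeq on GRCr8 at chr7:58996308-58996607, minus strand, is shown to set it beside that of Tmem173, and its capitals mark a match to the E-box CACGTG that starts 55 bases before the gene's start.
Tbk1: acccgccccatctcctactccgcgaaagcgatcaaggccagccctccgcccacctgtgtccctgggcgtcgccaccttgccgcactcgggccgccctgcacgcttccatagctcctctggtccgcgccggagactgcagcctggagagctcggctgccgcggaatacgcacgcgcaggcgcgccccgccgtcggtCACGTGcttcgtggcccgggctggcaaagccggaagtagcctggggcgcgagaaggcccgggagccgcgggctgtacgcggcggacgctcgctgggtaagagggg

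Ikbke encodes IKKε, the other kinase that phosphorylates IRF3. It counted 381, 367 and 320 reads in the challenged libraries and 352, 355 and 382 in the controls, with the groups interleaved. The log2 ratio was 0.00041 (95% interval -0.18 to 0.18, edgeR adjusted p = 0.999), an interval that on the linear scale runs from -11.5% to 13.1%. The ratio of Tbk1 to Ikbke counts, which does not depend on how libraries are scaled, was 2.09, 2.51 and 2.80 in the challenged libraries and 1.70, 1.62 and 1.34 in controls. The ratios did not overlap between the groups, a log2 difference of 0.66. An exact permutation test gave p = 0.1, two-sided, the smallest value that 3 libraries against 3 allow. This ratio and those that follow were chosen after the values had been seen. Each sets a called member over one not called, so its separation restates the rise of the called member and is not further evidence.

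Mavs encodes the adaptor through which RIG-I and MDA5 reach the same kinases. It counted 442, 443 and 449 reads in the challenged libraries and 493, 492 and 509 in the controls. Each challenged library lay below each control, by a small amount. The levels were 24.7 ± 0.381 CPM (SD, n = 3) against 27.2 ± 0.591 CPM (SD, n = 3), with a log2 ratio of -0.14 (95% interval -0.27 to -0.0033), and the gene was not called (edgeR adjusted p = 0.342). With Mb21d1, Tmem173 and Tbk1 it made 4 of 9 tested members whose groups did not overlap, where 19.1% of all genes tested did not. The ratio of Tmem173 to Mavs counts, the adaptor of the DNA arm over that of the RNA arm, was 0.448, 0.463 and 0.396 in the challenged libraries and 0.223, 0.228 and 0.185 in controls. It was higher in every challenged library, with a log2 difference of 1.04 (exact permutation test, two-sided, p = 0.1).

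Ddx41, a helicase that has been described as a DNA sensor upstream of STING, counted 1109, 1059 and 1106 reads in the challenged libraries and 1009, 1197 and 1165 in the controls. The challenged libraries fell within the range of the controls once scaled, at 60.7 ± 0.561 CPM (SD, n = 3) against 61.2 ± 4.19 CPM (SD, n = 3). The log2 ratio was -0.013 (95% interval -0.13 to 0.099, edgeR adjusted p = 0.939). Zbp1, a sensor of left-handed nucleic acids that can start necroptosis, counted 1, 5 and 3 challenged and 5, 1 and 1 control reads. These sum to 9 and 7 counts, a ratio of 1.31 with a 95% Poisson interval of 0.434 to 4.14 that covers counting error only, so a difference in Zbp1 was not detectable at this depth.

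None of the 3 genes that remove nucleic acids or their building blocks was called. Trex1, the main exonuclease for cytosolic DNA, counted 402, 409 and 388 reads in the challenged libraries and 442, 422 and 430 in the controls. After scaling the groups overlapped, with 22.2 ± 0.920 CPM (SD, n = 3) against 23.5 ± 1.07 CPM (SD, n = 3) and a log2 ratio of -0.082 (95% interval -0.23 to 0.066, edgeR adjusted p = 0.639). The ratio of Mb21d1 to Trex1 counts, the sensor over the nuclease that removes its ligand, was 0.333, 0.381 and 0.456 in the challenged libraries and 0.120, 0.130 and 0.147 in controls. The ratios of the groups lay far apart, with a log2 difference of 1.55 (exact permutation test, two-sided, p = 0.1).

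Dnase2, the gene of the lysosomal nuclease that digests engulfed DNA, counted 2672, 2558 and 2668 reads in the challenged libraries and 2622, 2799 and 2778 in the controls, with overlapping groups after scaling. It had the narrowest interval of the 9 members tested, with a log2 ratio of -0.026 (95% interval -0.10 to 0.050, edgeR adjusted p = 0.799). On the linear scale the interval runs from -6.83% to 3.55%. Samhd1, which breaks down the deoxynucleotides used in DNA synthesis, counted 242, 282 and 246 reads in the challenged libraries and 229, 235 and 331 in the controls. One control library was high, at 17.8 CPM against 12.8 and 12.7 CPM in the other controls. Samhd1 gave a log2 ratio of -0.016 (95% interval -0.30 to 0.27, edgeR adjusted p = 0.975), and without control replicate 3 the log2 ratio was 0.17 (adjusted p = 0.506).

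Windows of the same length were found for 6 of the 10 members, Tmem173, Tbk1, Trex1, Ddx41, Mavs and Samhd1. Both strands were searched for the ISRE core GAAANNGAA, bound by interferon regulatory factors, the NF-kB site by its usual consensus, and, chosen after the letters had been seen, the AP-1 site TGANTCA and the E-box CACGTG. None of the 6 windows held an ISRE core or an NF-kB site. Of 33469 windows of the annotation, 9.71% held the ISRE core, 7.51% the NF-kB site, 7.33% the AP-1 site and 6.42% the E-box. Of these 4 motifs, the AP-1 site matched in Tmem173 and the E-box in Tbk1, and since both were chosen from the letters, the matches do not set these genes apart from the members not called. A match describes letters in a window and not a bound site.

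**Figure D2:**
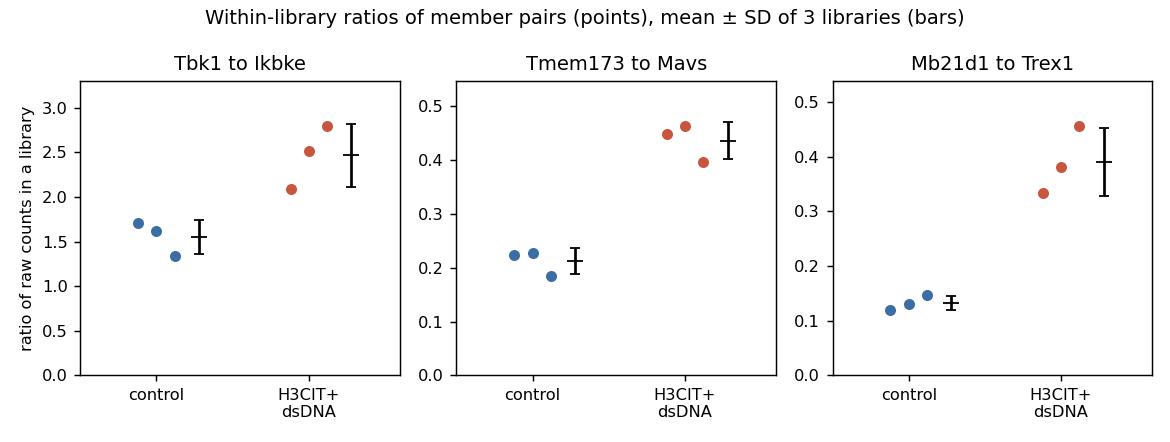
Ratio of raw counts of 2 members within a library (vertical axes, starting at 0), for Tbk1 to Ikbke, Tmem173 to Mavs and Mb21d1 to Trex1, with one point per library and the mean and SD of 3 libraries beside them. In all 3 panels every H3CIT+dsDNA library lies above every control; for Tbk1 to Ikbke the lowest challenged ratio is 2.09 and the highest control ratio 1.70.

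The wider pathway was read from lists of 131 further genes, of which 129 were found in the table and 114 had enough counts to be tested. 6 of the 114 were called, all higher, which is 5.26% against 2.20% of all genes, and 25 had groups that did not overlap, which is 21.9% against 19.1%. The median log2 ratio was 0.00021 over these genes and -0.0013 over all genes tested. The lists were chosen with earlier results of these data known, so their share called is no evidence of an excess. The 6 called genes stood apart from the rest: the smallest of their log2 ratios was 0.98, and the largest among the 108 genes not called was 0.51, that of Traf6, named here after its value was seen. The Traf6 value rests on control replicate 3, with 65 reads against 210 and 275 in the other controls, and without that library its log2 ratio was 0.098. The same library was also low for Xrcc6, at 447 reads against 1861 and 2061, and for Xrcc5, at 331 against 885 and 966. Both belong to the list of DNA sensors and cofactors, were named after their values were seen, and were not called.

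Downstream of the kinases, 2 of 18 genes tested for kinase adaptors and transcription factors rose. Irf3, the substrate of TBK1, counted 985, 996 and 898 reads in the challenged libraries and 453, 343 and 446 in the controls, with a log2 ratio of 1.24 (95% interval 1.03 to 1.45, edgeR adjusted p = 2.58e-06). Irf7, which amplifies interferon production, counted 159, 166 and 145 challenged and 21, 38 and 27 control reads, with a log2 ratio of 2.48 (edgeR adjusted p = 2.87e-06). In both genes each challenged library was far above each control. Among adaptors that link the kinases to their receptors, Tank had a log2 ratio of -0.052 (edgeR adjusted p = 0.891) and Traf3 one of 0.10 (edgeR adjusted p = 0.342).

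Upstream and beside STING, 1 gene rose in each of 2 lists and no gene was called in another. Of 20 DNA sensors and cofactors tested, Aim2 was called, the sensor of the DNA inflammasome, at 23, 22 and 21 reads in the challenged libraries and 6, 7 and 4 in the controls, with a log2 ratio of 1.98 (95% interval 1.23 to 2.74, edgeR adjusted p = 0.00735). In this list 7 of the 20 had an unadjusted edgeR p-value under 0.05, where 1755 of all 12591 genes tested had one. The groups of 6 did not overlap, which is 30% against 19.1% of all genes tested, and the list's median log2 ratio was 0.14. The counts of Aim2 were low, and those of the challenged group are consecutive whole numbers, and the study displays this gene from the same cells and challenge too. Of 22 genes of STING traffic and modification tested, Nlrc3 was called, a protein described as holding STING back, at 342, 333 and 355 challenged and 87, 86 and 69 control reads, with a log2 ratio of 2.12 (edgeR adjusted p = 2.81e-08). None of the 12 genes that carry or cleave cGAMP was called in edgeR's test. Of these 12, 2 had an unadjusted p-value under 0.05 in that test, against 1755 of all 12591 genes tested. Enpp1, which hydrolyses cGAMP outside the cell, had a log2 ratio of -0.019 (edgeR adjusted p = 0.972).

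On the RNA side, 1 of 12 genes tested rose. Adar, which edits double-stranded RNA and keeps it from being sensed, counted 1156, 994 and 1087 reads in the challenged libraries and 544, 556 and 575 in the controls, with a log2 ratio of 0.98 (95% interval 0.85 to 1.10, edgeR adjusted p = 1.17e-07). The sensor genes themselves were not called. The groups of 3 of the 12 did not overlap, all higher, which is 25% against 19.1% of all genes tested. They were Adar, Eif2ak2 and Tlr3, the last 2 named after their values were seen. Eif2ak2 had a log2 ratio of 0.27 (95% interval 0.090 to 0.46, edgeR adjusted p = 0.149). Ddx58, which encodes RIG-I, counted 217, 171 and 203 challenged and 190, 196 and 217 control reads, with a log2 ratio of -0.0017 (95% interval -0.23 to 0.22, edgeR adjusted p = 0.998). Ifih1, which encodes MDA5, counted 29, 22 and 23 challenged and 23, 19 and 27 control reads, with a log2 ratio of 0.13 (95% interval -0.45 to 0.71, edgeR adjusted p = 0.877). Adar was also the 1 gene called among the 14 nucleases and related genes tested. The groups of 6 of the 14 did not overlap, which is 42.9% against 19.1% of all genes tested. Of these, Adar was higher, and Rnaset2, Endog, Fen1, Slc29a3 and Rnaseh2c were lower and not called. The lower genes were named after their values were seen. The list's median log2 ratio was -0.053.

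The genes that IRF3 and interferon turn on were, apart from Irf7 and Irf9, not called: 2 of 19 tested rose. Irf9, a transcription factor of the interferon response, counted 430, 334 and 355 challenged and 165, 146 and 176 control reads, with a log2 ratio of 1.23 (edgeR adjusted p = 9.06e-06). Ifnb1, the gene of interferon β and the classical product of this pathway, had 1 count in 1 challenged library and 0 in the other 5, too few for a difference to be detectable. Cxcl10, an early IRF3 target, counted 85, 65 and 94 reads in the challenged libraries and 101, 115 and 83 in the controls, with a log2 ratio of -0.27 (95% interval -0.66 to 0.12, edgeR adjusted p = 0.553).

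Isg15, a ubiquitin-like protein made in response to interferon, counted 82, 83 and 106 challenged and 79, 95 and 115 control reads, with a log2 ratio of -0.063 (95% interval -0.44 to 0.31, edgeR adjusted p = 0.909). Ifit1, which binds viral RNA caps, counted 85, 90 and 93 challenged and 106, 82 and 133 control reads, with a log2 ratio of -0.23 (95% interval -0.62 to 0.15, edgeR adjusted p = 0.604). In Cxcl10, Isg15 and Ifit1 the groups overlapped, and a fold change of 2 lay outside the interval of each. The median log2 ratio of the 19 targets tested was 0.019. The time between challenge and RNA extraction is not stated in the methods read here.

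**Figure D3:**
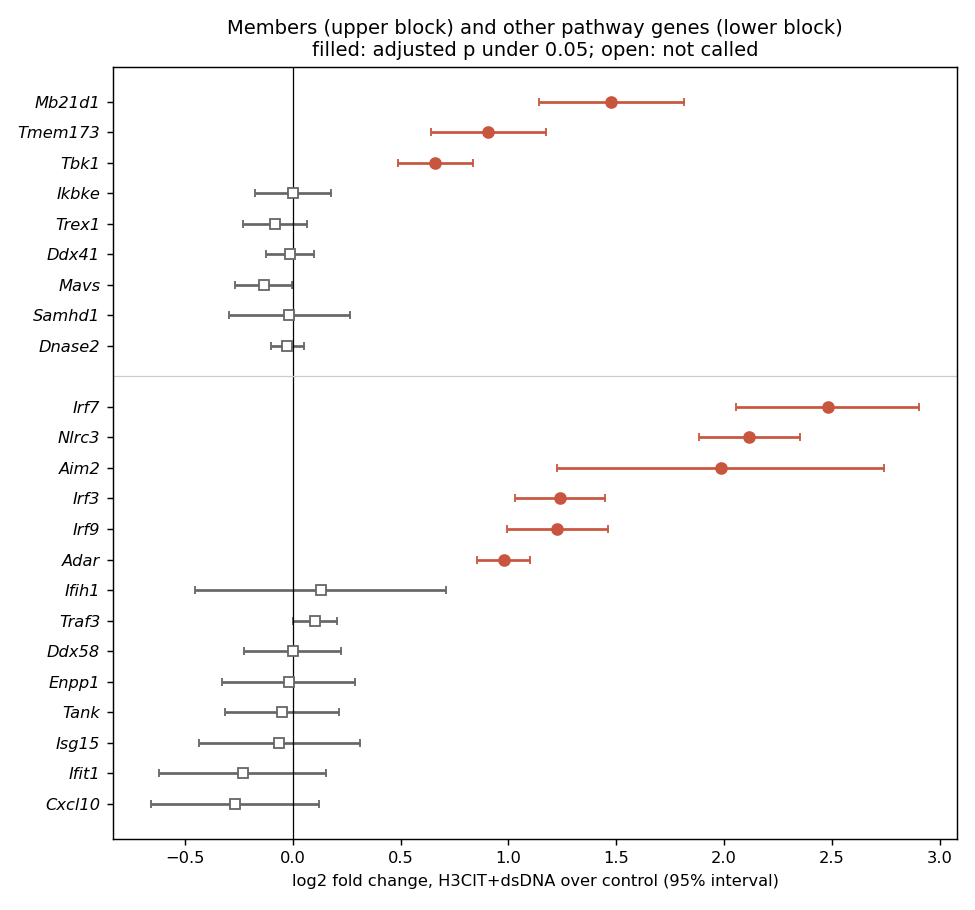
Log2 ratio of H3CIT+dsDNA over control (horizontal axis) with its 95% interval from edgeR, for the 9 members tested (upper block) and for 14 further genes of the pathway (lower block). Filled circles have an adjusted p-value under 0.05 and open squares do not; Mb21d1, Tmem173 and Tbk1 stand to the right of 0 in the upper block, and Cxcl10, Isg15 and Ifit1 have intervals that cross 0 in the lower one.

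**Figure D4:**
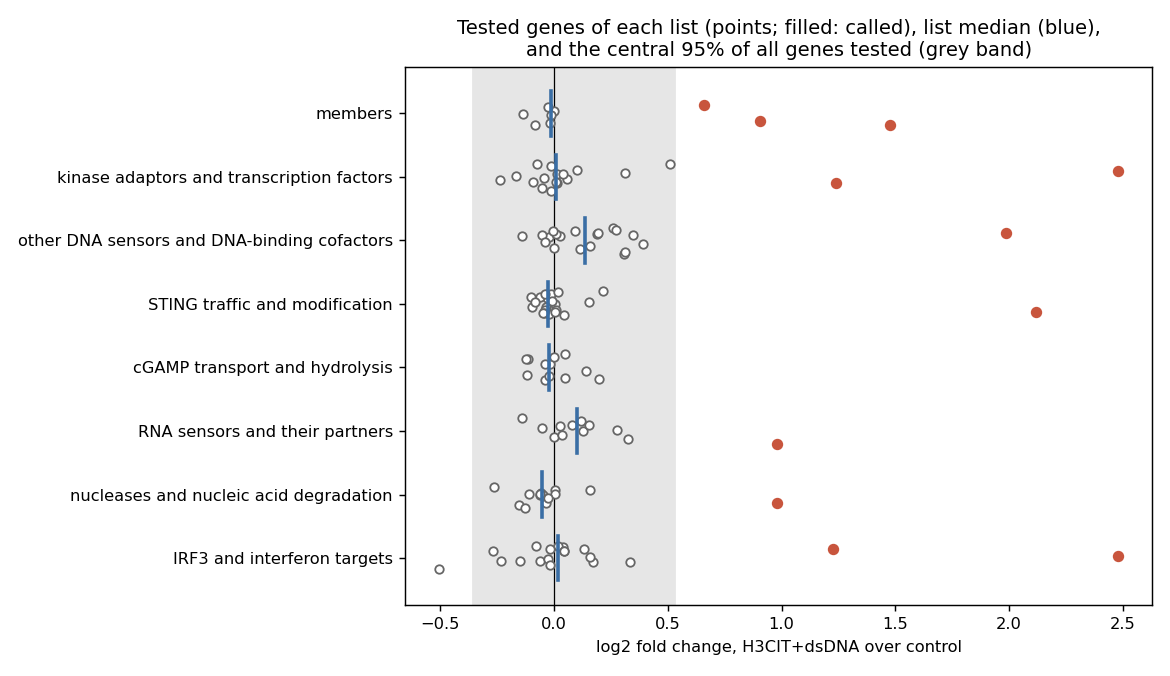
Log2 ratio of H3CIT+dsDNA over control (horizontal axis) for each tested gene of the members and of the 7 pathway lists, with the vertical scatter within a list only to separate points, the list's median as a blue line and called genes filled. The grey band holds the central 95% of all 12591 genes tested, from -0.35 to 0.53; in each row most points lie in the band and the called genes lie to its right.

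The genes closest to Mb21d1 and to Tmem173 in pattern were sought among all genes tested, by the root mean square difference of log2 CPM over the 6 libraries after centring each gene on its mean. For Mb21d1 they were Aifm3, Htra3 and Pcna, at 0.0932, 0.0942 and 0.107. Pcna, the sliding clamp of DNA replication, counted 1658, 1681 and 1880 reads in the challenged libraries and 667, 666 and 656 in the controls. For Tmem173 they were Hax1, Tlr4 and Map2k4, at 0.104, 0.109 and 0.116. Tlr4, the cell-surface receptor for lipopolysaccharide, counted 205, 211 and 198 reads in the challenged libraries and 109, 124 and 118 in the controls.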

How the data were processed

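RNA of RASMCs from 3 H3CIT+dsDNA and 3 control cultures was made into stranded mRNA libraries. The authors aligned reads to the rat genome Rnor6.0 by TopHat2 2.1.1 and obtained read numbers per gene by HTSeq, and the deposited values are these raw counts. The strand setting of the counting is not given in the sources used here, and the submitters' processing notes also name Cufflinks 2.2.1 and Cuffdiff. Groups come from the labels.

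Low genes were removed by filterByExpr, and the remainder was compared in edgeR 4.0.16 (R 4.3.3) after TMM scaling. Intervals of 95% use standard errors derived from the F statistic and the total degrees of freedom. The fit was first tested on simulated data. It recovered 191 of 200 genes given a log2 change of 1.5 and called 10 unchanged genes. This does not show how often smaller changes, such as those of Tmem173 and Tbk1, would be called. Alternatives were 3 other scalings, DESeq2 1.42.0, limma-voom (limma 3.58.1), 2 other count filters, robust dispersion, a replicate block, and leaving out single libraries.

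Named genes are the 10 members, the genes of each list called with the largest absolute log2 ratio, at most 4 in each direction, and 12 chosen by name: Irf3, Irf7, Ifnb1, Cxcl10, Isg15, Ifit1, Ddx58, Ifih1, Aim2, Traf3, Tank and Enpp1, with the 3 genes most alike in pattern to Mb21d1 and to Tmem173. Members and lists were chosen with earlier results of these data known. Promoter windows come from RefSeq on GRCr8, and no coordinates of Rnor6.0 were used. One further motif that was searched, which matched in a member not called, is not reported here.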

Additional observations from a re-analysis of the deposited data

How the results depend on the processing

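The same 3 members were called, all higher, in each of the 15 alternatives, and 135 of 135 values of the 9 members tested kept their side of the threshold. Log2 ratios ran from 1.38 to 1.58 for Mb21d1, from 0.82 to 0.97 for Tmem173 and from 0.59 to 0.73 for Tbk1. Their adjusted p-values were at most 0.000802, 0.00780 and 0.00318. The sign of Ikbke, Ddx41 and Samhd1 changed among alternatives, always without a call. With a replicate block 3 members and 6 further pathway genes were called, as without it. Deviations from the group means of same-numbered libraries correlated across genes at -0.0458, 0.00452 and 0.0355. No pairing by number was seen, and one weaker than the spread between wells could not be seen this way.

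The number of members whose groups did not overlap was 4, 5 with DESeq2's size factors or upper-quartile scaling, and from 4 to 7 when single libraries were left out. The 7 came without control replicate 1, and leaving out any other single library gave 4 or 5. The share over all genes tested, 19.1%, was counted only with TMM and all 6 libraries. The numbers from other settings therefore have no such share beside them and are not read as a result about the members. A separation is easier to reach with fewer libraries, as in the settings that leave one out. The other scalings kept all 6 libraries. The number of pathway genes called, 6, ran from 5 to 9. Aim2 did not enter the test at 10 or more counts in every library, and robust dispersion estimates added Ap1g1, Prkdc and Rnaset2. Scaling by library size alone added Ap1g1 and Prkdc. Leaving out H3CIT+dsDNA replicate 2 added Prkdc, and leaving out control replicate 3 added Dhx9. The highest adjusted p-value of Aim2 was 0.0488. The log2 differences of the 3 ratios ran from 0.56 to 1.66 when single libraries were left out, a check added after seeing the data. Depth limits Zbp1 and Ifnb1.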

Other observations

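Counts of 3 consecutive whole numbers in a group, such as those of Aim2 above, were counted over the table. Of the 143 called genes with an absolute log2 ratio over 0.5 and a control mean of at least 20 counts, 21 (14.7%) had such a run in controls, against 23 of 11522 genes not called (0.200%). In the H3CIT+dsDNA group the same counts were 11 of 154 (7.14%) and 32 of 11532 (0.277%). None of the 10 members had such a run in either group, and neither did Irf3, Irf7, Irf9, Nlrc3 or Adar. Htra3, the gene second nearest to Mb21d1 in pattern, had control counts of 54, 55 and 56. The called genes and those not called were not matched in count level or in spread within a group, on which the share of such runs also depends. How these runs arose was not tested.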
